A study of Mus musculus and Rattus norvegicus with 32 samples.

Results

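The aryl hydrocarbon receptor (AHR) pathway was followed in the RNA of mouse hearts with METTL5 loss and of rat ventricular cardiomyocytes with METTL5 gain. METTL5 is the methyltransferase that places an N6-methyladenosine mark on 18S ribosomal RNA. The genes were taken by symbol from every count table: Cyp1a1, Cyp1b1, Ahr, Ahrr, Arnt and Tiparp, 6 of 55487 genes listed for the mouse hearts and 6 of 32883 listed for the rat cells. They were selected on the measured level of Cyp1a1, which was lower both in the METTL5-cKO hearts after pressure overload and in the rat cells with added METTL5. The differences of these 6 genes in those comparisons are therefore given as a description without a p-value.

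AHR is a ligand-activated transcription factor of the bHLH-PAS family that waits in the cytoplasm in a complex that includes HSP90 and p23. A bound ligand, such as a planar aromatic pollutant or a tryptophan metabolite, sends it to the nucleus, where it pairs with ARNT and binds xenobiotic response elements with the core GCGTG. Cyp1a1, Cyp1b1, Ahrr and Tiparp are among its standard target genes, and AHRR and TIPARP in turn dampen the receptor. CYP1A1 and CYP1B1 are monooxygenases that oxidise AHR ligands and also act on estrogens and polyunsaturated fatty acids. In blood vessels Cyp1a1 is inducible in the endothelium, whereas Cyp1b1 is known mainly from fibroblasts and other stromal cells.

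RNA sequencing covered 32 libraries in 8 groups of 4, which ask what METTL5 loss or gain does to the transcripts of the resting and the hypertrophic heart. At 1 month of age, C57BL/6 hearts labelled METTL5-KO, from a knockout that was not restricted to the heart, were set against hearts labelled control. At 3 months, C57BL/6 hearts labelled METTL5-cKO, in which an αMHC (Myh6) Cre driver removes the floxed exons 2, 3 and 4 of Mettl5 in cardiomyocytes, were set against control littermates. The same pair of labels, also at 3 months of age, was sequenced 4 weeks after transverse aortic constriction (TAC), a surgical narrowing that loads the left ventricle. Neonatal rat ventricular cardiomyocytes (NRVMs) of Sprague Dawley pups at postnatal day 2 carried an adenovirus with GFP (AdGFP) or with the human METTL5 coding sequence (AdMETTL5), and both groups received 20 μM phenylephrine (PE), a hypertrophic α1-adrenergic agonist, for 24 h. Which Mettl5 and Cre alleles the control hearts carried is not given in the sources used here, so a part of the Cre alone cannot be told apart from the deletion.

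Total counts per library lay between 19899033 and 21804907 in the TAC hearts, 20382162 and 21739203 in the other hearts, and 14324700 and 18085339 in the NRVMs. Values below are counts per 1000000 counts of the library (CPM), on library sizes scaled by the trimmed mean of M-values (TMM). The count of Mettl5 over the whole gene, which includes the exons outside the floxed part, did not pass the test between hearts with and without loss (adjusted p from 0.874 to 0.973, edgeR). It was 5.12 ± 0.665 CPM in control and 5.97 ± 0.807 in METTL5-KO hearts at 1 month, 7.36 ± 0.554 and 6.51 ± 0.731 at 3 months, and 6.75 ± 0.752 and 6.59 ± 0.764 after TAC (SD, n = 4). That count covers more than the deleted part, so it gave no check of the genotype, and the groups below are named as labelled. In the rat cells Mettl5 rose from 17.0 ± 0.774 to 21.2 ± 1.76 CPM under AdMETTL5 (SD, n = 4; adjusted p = 0.00295, edgeR), a count that could take in reads of the human insert. Each of the 48 pairs of libraries within a group differed by more than counting error (chi-square per degree of freedom of 2.198 or more). The counts are estimates, so this does not exclude that some libraries repeat one sample. Since nothing says that libraries came from separate animals or cultures, p-values measure the spread between these libraries. The 6 cardiomyocyte markers summed to 17804 CPM or more in every heart library and to 11826 or more in the NRVMs. In such bulk RNA, fewer cells of a type and less RNA per cell cannot be told apart.

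The promoters of 3 target genes are shown because such sequences are where AHR and ARNT are known to act. RefSeq promoter sequences (GRCm38.p6) matched 5 of the 6 mouse genes, with Ahr as the exception. The 250 bases before the start site are printed 5′ to 3′ on the strand of the gene, with the xenobiotic response element core in capitals, as GCGTG or, read on the other strand, CACGC.
Cyp1a1 (chr9:57697363-57697612, plus strand): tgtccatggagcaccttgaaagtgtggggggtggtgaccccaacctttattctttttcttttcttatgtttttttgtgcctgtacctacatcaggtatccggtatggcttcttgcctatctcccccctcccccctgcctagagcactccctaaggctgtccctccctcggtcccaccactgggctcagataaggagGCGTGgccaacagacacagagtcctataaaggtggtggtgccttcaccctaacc
Ahrr (chr13:74292332-74292581, minus strand): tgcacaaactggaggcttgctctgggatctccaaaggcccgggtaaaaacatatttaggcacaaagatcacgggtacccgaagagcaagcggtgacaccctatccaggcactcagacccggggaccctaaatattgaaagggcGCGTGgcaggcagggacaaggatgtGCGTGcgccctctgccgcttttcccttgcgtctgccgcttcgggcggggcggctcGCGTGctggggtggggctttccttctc
Cyp1b1 (chr17:79715062-79715311, minus strand): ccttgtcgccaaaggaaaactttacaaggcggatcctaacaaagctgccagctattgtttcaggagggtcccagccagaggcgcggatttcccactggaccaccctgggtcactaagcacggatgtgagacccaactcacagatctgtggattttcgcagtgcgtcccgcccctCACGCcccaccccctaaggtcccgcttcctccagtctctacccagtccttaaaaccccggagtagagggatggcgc
Cyp1a1 held the core once, starting 54 bases before the start site. Ahrr held it 3 times, at 107, 82 and 27 bases before its start, and Cyp1b1 held it once on the other strand, at 76 bases. Arnt and Tiparp each held it once as well. Of all 32851 promoter windows of this length, 28.2% held the core on either strand, so a match in 5 of 5 windows is a description of the sequence and not of binding. The same letters are also a form of the core that hypoxia-inducible factors bind. The best known elements of Cyp1a1 lie farther upstream than this window.

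Mouse Cyp1a1 (ENSMUSG00000032315) lies on the plus strand of chromosome 9 of GRCm38 from 57687928 to 57703824, and no other annotated gene overlaps it. The 250 bases printed for Cyp1a1 lie inside this span, because they precede a RefSeq start site and the span is that of the GENCODE annotation. Cyp1b1 lies on chromosome 17, Ahrr on chromosome 13, Ahr on chromosome 12, and Arnt and Tiparp on chromosome 3. Ahr, Arnt and Tiparp overlap the annotated genes Gm48236, Gm42672 and 4931440P22Rik, so that reads in the shared stretches could be split between them.

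Across the 6 heart groups the receptor's partner Arnt was the most abundant of these genes, and the repressor Ahrr was the least abundant in all groups but METTL5-cKO TAC, where Cyp1a1 was lower still. These levels are CPM per kilobase of exon on a scale set jointly over the 24 heart libraries, whose tables were deposited separately. Arnt, which also partners the hypoxia-inducible factors, had group medians of 3.20 to 3.76. Tiparp, a mono-ADP-ribosyltransferase, had medians of 1.31 to 3.04, Cyp1b1 of 0.438 to 1.73 and Ahr of 0.534 to 1.11. Ahrr, which competes with AHR for ARNT, stayed at 0.0744 to 0.187. Cyp1a1 ranged most widely, from 0.886 in the 3-month control hearts to 0.0425 in the METTL5-cKO TAC hearts.

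On that joint scale, without division by length, the order of Cyp1a1 medians was 3-month control (2.47 CPM), 1-month METTL5-KO (2.39), 3-month METTL5-cKO (2.14), 1-month control (1.78), control TAC (1.38) and METTL5-cKO TAC (0.119). The libraries of neighbouring groups overlapped in every step except the last. Ahr had the same last step, from 5.50 CPM in control TAC to 3.29 in METTL5-cKO TAC hearts, again with no overlap between the libraries. For Ahrr the METTL5-cKO TAC hearts were also lowest (0.702 CPM), but their libraries overlapped those of control TAC (0.977). Tiparp and Cyp1b1 ran the other way, with the METTL5-cKO TAC hearts highest at 13.2 and 10.1 CPM, in both cases with libraries that overlapped those of the next group.

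**Figure D1:**
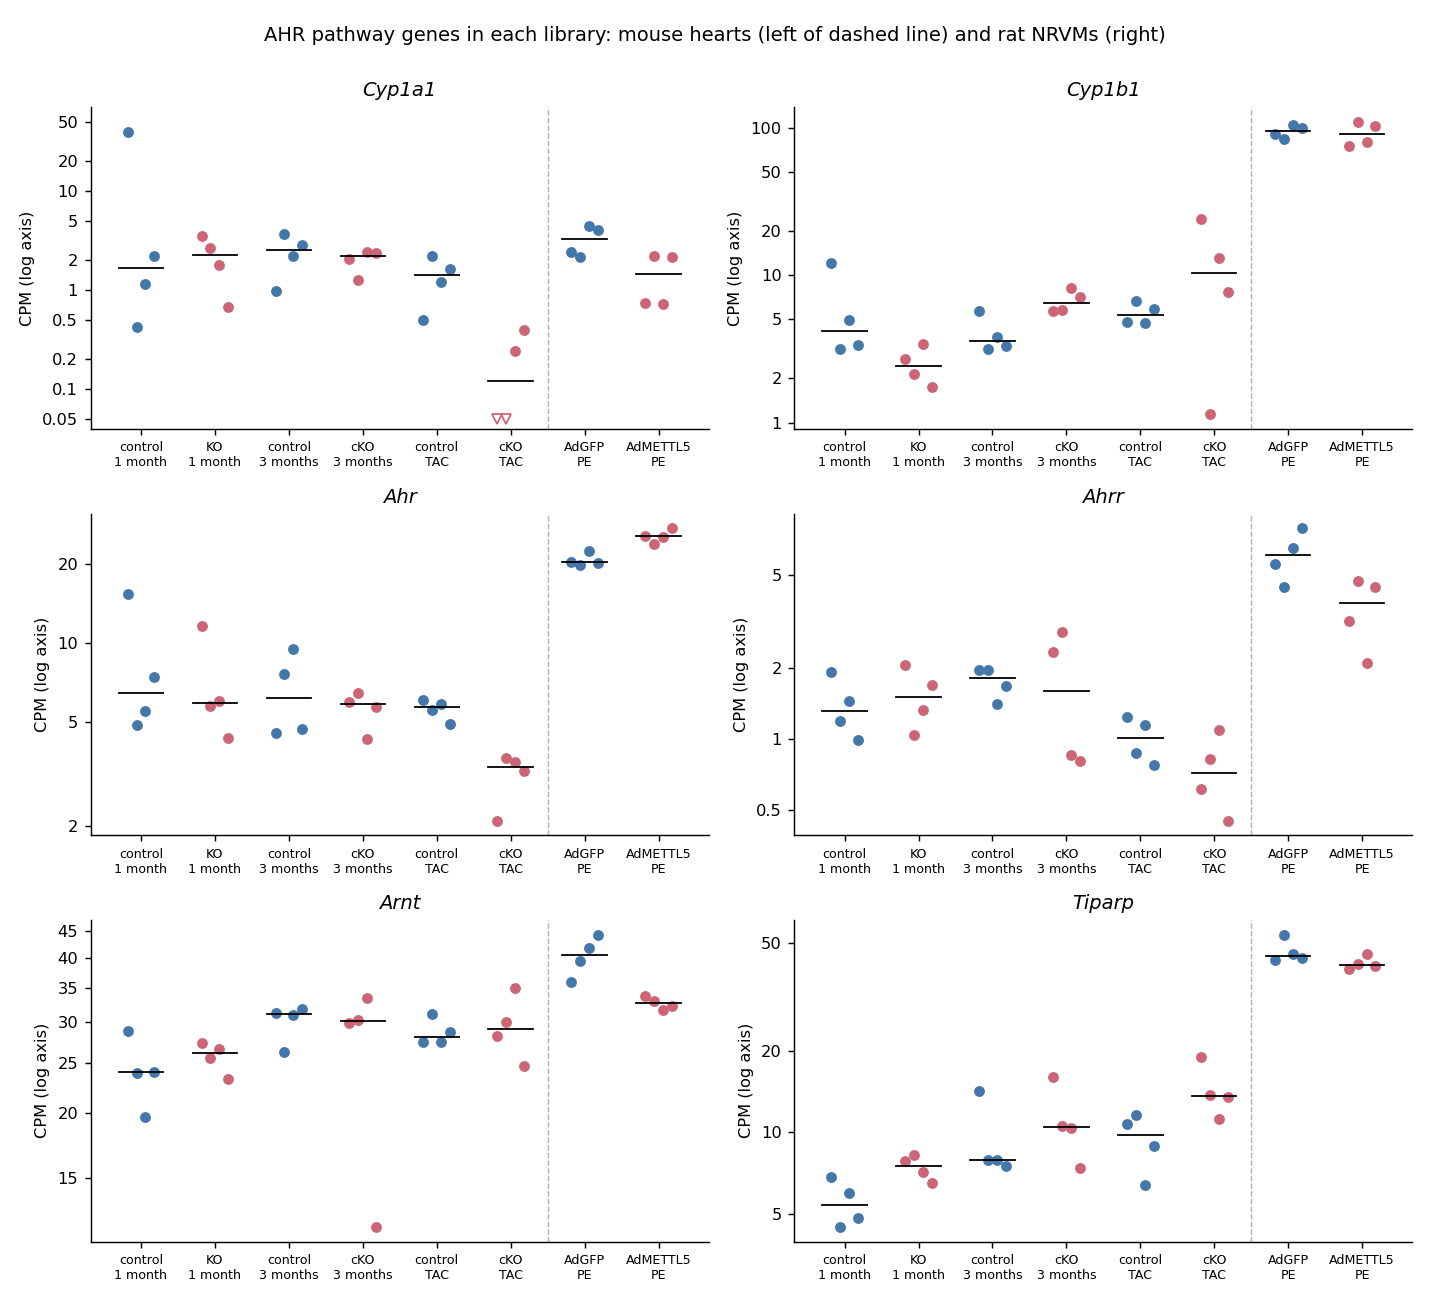
CPM on a log axis of each gene in each library of the 8 groups, with blue points for control or AdGFP, red points for METTL5-KO, METTL5-cKO or AdMETTL5, a black line at the median, and open triangles for libraries with 0 counts, drawn at 0.05 CPM. Cyp1a1 and Ahr of the METTL5-cKO TAC hearts lie below all control TAC hearts, and Cyp1a1 of 1 control heart at 1 month stands at 39.3 CPM.

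After TAC, Cyp1a1 was at or close to 0 counts in the hearts labelled METTL5-cKO. The 4 control TAC libraries held 10, 45, 23 and 34 counts, or 0.496, 2.19, 1.197 and 1.65 CPM. The METTL5-cKO TAC libraries held 0, 0, 6 and 8 counts, or 0, 0, 0.243 and 0.399 CPM. The groups did not overlap, although the lowest control library and the highest METTL5-cKO library lay close together, and a count of 0 allows up to 0.132 and 0.137 CPM in the libraries concerned (3 counts, counting error only). This is a log2 fold change of -3.10 (standard error, SE, 0.733), an 8.55-fold lower level that rests on 14 counts in all in the METTL5-cKO TAC hearts. Cyp1a1 passed the filter on low counts through the control TAC libraries alone, in which it is high.

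The receptor itself was lower as well. Ahr stood at 6.05, 5.54, 5.83 and 4.90 CPM in control TAC and at 2.105, 3.65, 3.52 and 3.25 CPM in METTL5-cKO TAC hearts, without overlap, for a log2 fold change of -0.83 (SE 0.170). Its partner Arnt moved little, at 28.7 ± 1.73 and 29.5 ± 4.27 CPM (SD, n = 4), which is 0.04 on the log2 scale (SE 0.107).

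The genes that restrain the receptor had opposite signs after TAC. Ahrr gave 1.24, 0.875, 1.14 and 0.776 CPM in control TAC and 0.614, 0.820, 1.09 and 0.449 in METTL5-cKO TAC hearts, which overlapped (log2 fold change -0.42, SE 0.282). Tiparp gave 10.7, 11.5, 6.40 and 8.88 CPM against 19.0, 13.8, 11.2 and 13.4, with only the lowest METTL5-cKO library inside the control range (log2 fold change 0.61, SE 0.204). The other P450 of the family, Cyp1b1, spread widely among METTL5-cKO TAC hearts, at 24.1, 1.14, 13.1 and 7.64 CPM, around control values of 4.81, 6.66, 4.73 and 5.92 (log2 fold change 1.06, SE 0.627). Its highest and its lowest library after TAC both carried 0 Cyp1a1 counts.

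Of the 6 genes, 2 (Cyp1a1 and Ahr, both lower) passed an adjusted p of 0.05 in edgeR's quasi-likelihood test after TAC, beside 12.7% of the 16340 genes tested (6.57% higher and 6.10% lower). The same 2 had groups that did not overlap, beside 18.6% of all genes. With an absolute log2 fold change over 1 also required, Cyp1a1 alone passed, beside 2.90%. Since this comparison chose the genes, nothing is read from these counts. The pass of Cyp1a1 needed most of the libraries: it was lost on leaving out library 2 (log2 fold change -2.78), 3 (-3.15) or 4 (-2.99) of control TAC, or library 1 (-2.68), 2 (-2.70) or 3 (-3.41) of METTL5-cKO TAC. That of Ahr was lost on leaving out library 2 of control TAC (-0.83).

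**Figure D2:**
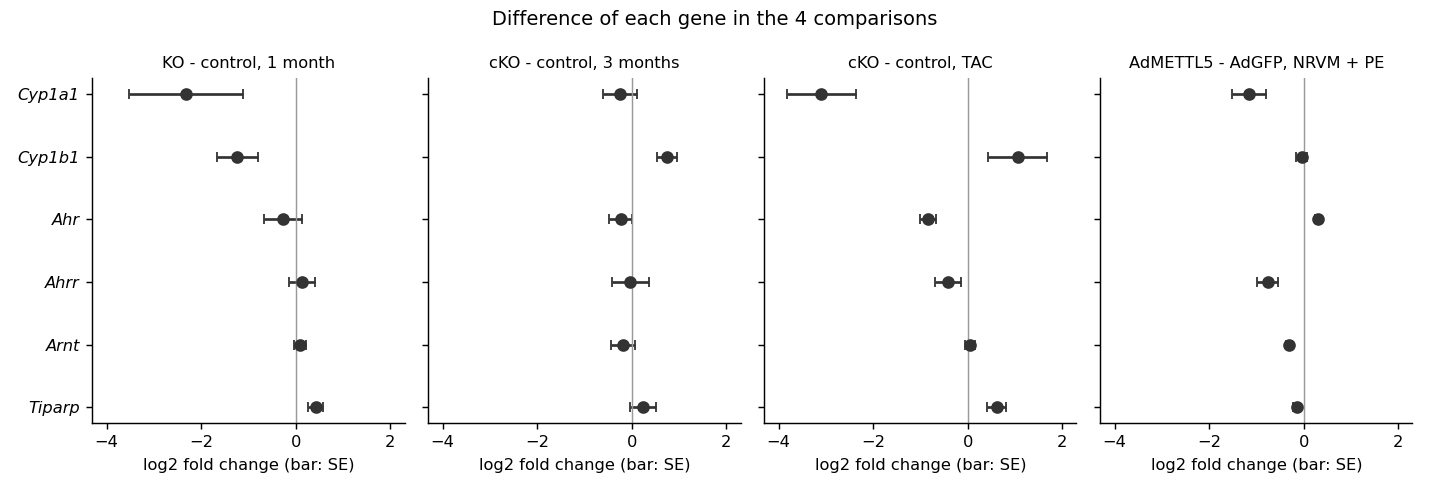
Log2 fold change of each gene with its standard error (bars) in the 2 comparisons of unoperated hearts, in TAC hearts and in PE-treated NRVMs, as the group with altered METTL5 minus its control. Cyp1a1 is at -3.10 after TAC and at -1.15 in NRVMs, and the wide bar of Cyp1a1 at 1 month comes with a standard error of 1.21.

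In unoperated hearts at 3 months, a comparison that played no part in choosing the genes, Cyp1a1 was at a similar level in both groups. The control libraries held 0.979, 3.64, 2.22 and 2.87 CPM and the METTL5-cKO libraries 2.08, 1.27, 2.43 and 2.38, all inside the control range. The log2 fold change was -0.25 with a 95% interval from -0.95 to 0.45 (adjusted p = 0.994, edgeR), and an exact two-sided permutation test over the 70 labellings gave p = 0.743. The interval does not reach the fitted value after TAC, which was used to choose the genes and has its own interval from -4.53 to -1.66. No test is drawn from this. Leaving out control library 2, the highest, gave a log2 fold change of 0.011.

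At 3 months the P450 that differed most was Cyp1b1. Its control libraries held 5.69, 3.15, 3.77 and 3.32 CPM and its METTL5-cKO libraries 5.74, 5.76, 8.13 and 7.09, a separation that hung on 5.69 against 5.74. It was the only one of the 6 genes without overlap here, beside 4.23% of all genes. The log2 fold change was 0.75 (SE 0.206) with p = 0.0286 in the exact permutation test, the smallest that 4 against 4 libraries can give, but it did not pass over all genes (adjusted p = 0.385, edgeR). The sum of the 7 fibroblast markers was 1.34 times the control mean in these METTL5-cKO hearts, with overlapping libraries. The 6 macrophage markers summed to 75.4 to 98.4 CPM in control and 98.6 to 127.9 CPM in METTL5-cKO hearts, just without overlap (1.33 times), with none of the 6 called. The part of either cell type in the Cyp1b1 value was not tested.

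The remaining genes lay closer together at 3 months. Ahr, Arnt, Ahrr and Tiparp had log2 fold changes of -0.23, -0.19, -0.03 and 0.24 and adjusted p of 0.970, 0.990, 0.999 and 0.973 (edgeR), with exact permutation p between 0.514 and 0.714. Ahrr divided the METTL5-cKO libraries into 2.35 and 2.86 CPM on one side and 0.854 and 0.809 on the other, around controls of 1.42 to 1.97. Arnt was at 12.05 CPM in METTL5-cKO library 4 while the other 7 libraries held 26.3 to 33.4. None of the 6 genes passed at 3 months, beside 0.0732% of all genes tested, and 1 of them had an unadjusted p under 0.05 (7.05% of all genes).

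The genotype effect on Cyp1a1 after TAC minus that at 3 months was -2.83 on the log2 scale (SE 0.857) in a joint fit of both tables. In that fit Cyp1a1 was -0.80 (SE 0.490) in control TAC against 3-month control hearts and -3.64 (SE 0.668) in METTL5-cKO TAC against 3-month METTL5-cKO hearts. For Ahr the difference of effects was -0.59 (SE 0.317), for Ahrr -0.37 (0.534), for Arnt 0.24 (0.310), for Cyp1b1 0.33 (0.739) and for Tiparp 0.39 (0.364). Surgery and the deposited table cannot be told apart in these values, and the TAC effect was part of the choice of genes.

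At 1 month 1 library decided the Cyp1a1 result. Control library 1 held 1002 counts or 39.3 CPM, whereas the other control libraries held 0.428, 1.15 and 2.199 CPM and the METTL5-KO libraries 3.53, 2.69, 1.81 and 0.681. All 8 libraries together gave a log2 fold change of -2.32 (SE 1.21, adjusted p = 0.973 from edgeR), and without that library it was 0.80. The exact two-sided permutation test gave p = 0.829.

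The library with high Cyp1a1 was also the highest of the 8 for some other genes of the pathway, but not for most. Cyp1a1 was 11.1 times its highest value in the other 7 libraries, the second largest such ratio of 16329 genes. The ratio was 2.54 for Xdh (xanthine dehydrogenase), 2.49 for Hif3a, 2.42 for Cyp1b1 and 1.33 for Ahr, whereas Ahrr (0.932) and Tiparp (0.831) were not above the other libraries. Of the 6 genes 4 were highest in it, and of the 28 tested pathway genes 12 (42.9%), while 16 were not, such as Slc7a5 (0.478) and Hsp90aa1 (0.511). This library was the highest of the 8 for 25.7% of all genes, against 7.33% to 13.9% for each other library, and its TMM factor of 1.25 was the largest of the table. Its part in the Cyp1a1 value is shown by the value without it.

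None of the 6 genes passed at 1 month, beside 0.00612% of all genes, and 2 had an unadjusted p under 0.05 (4.57% of all genes). These were Cyp1b1, at 11.99, 3.14, 4.95 and 3.35 CPM in control and 2.70, 2.14, 3.40 and 1.75 in METTL5-KO hearts (log2 fold change -1.24, adjusted p = 0.973 from edgeR, exact permutation p = 0.0857), and Tiparp. Tiparp was at 6.82, 4.47, 5.98 and 4.82 CPM in control and 7.83, 8.21, 7.15 and 6.51 in METTL5-KO hearts (log2 fold change 0.43, adjusted p = 0.973 from edgeR, exact permutation p = 0.0571). Both groups overlapped for each of them. The log2 fold change of Cyp1b1 was thus positive at 3 months and negative at 1 month, and without control library 1 it was still -0.59. Over the 12 tests at 1 and 3 months, permutation p-values were not adjusted.

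In the NRVMs with PE, added METTL5 went with less Cyp1a1 and less Ahrr. Cyp1a1 held 2.43, 2.17, 4.38 and 4.07 CPM with AdGFP and 0.742, 2.21, 0.722 and 2.16 CPM with AdMETTL5. The highest AdMETTL5 library lay just above the lowest AdGFP library, so the groups overlapped (log2 fold change -1.15, SE 0.356). Ahrr, the repressor that AHR itself induces, held 5.57, 4.45, 6.54 and 7.91 CPM with AdGFP and 3.17, 4.698, 2.1005 and 4.45 with AdMETTL5, which also overlapped (log2 fold change -0.76, SE 0.230).

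The receptor and its partner moved in opposite directions in the rat cells. Ahr was at 20.3, 19.9, 22.4 and 20.2 CPM with AdGFP and at 25.4, 23.8, 25.4 and 27.3 with AdMETTL5, every library higher (log2 fold change 0.30, SE 0.0638). Arnt was at 35.8, 39.4, 41.7 and 44.3 CPM with AdGFP and at 33.7, 33.0, 31.7 and 32.2 with AdMETTL5, every library lower (log2 fold change -0.30, SE 0.0659). Tiparp was at 46.5 ± 4.78 and 42.0 ± 2.34 CPM (SD, n = 4; log2 fold change -0.15, SE 0.0725). Cyp1b1 was at 94.2 ± 9.18 and 91.7 ± 17.2 (SD, n = 4), a log2 fold change of -0.04 that turned to 0.09 when libraries were scaled by total count alone.

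Within each NRVM group Cyp1a1, Ahrr and Cyp1b1 shared their highest libraries, and the target gene Tiparp did not follow them. Among the AdMETTL5 libraries, 2 and 4 were the highest for Cyp1a1, Ahrr and Cyp1b1. Among the AdGFP libraries, 3 and 4 were the highest for the same genes. Tiparp was highest in AdGFP library 2 and in AdMETTL5 library 3, which were the lowest libraries of their groups for Cyp1a1. Arnt was also highest in AdGFP libraries 4 and 3, but with AdMETTL5 it was highest in library 1, and Ahr was lowest in AdMETTL5 library 2. The AdMETTL5 libraries low in Cyp1a1 also decided the call, since it no longer passed without AdMETTL5 library 1 (log2 fold change -0.94) or 3 (-0.93).

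**Figure D3:**
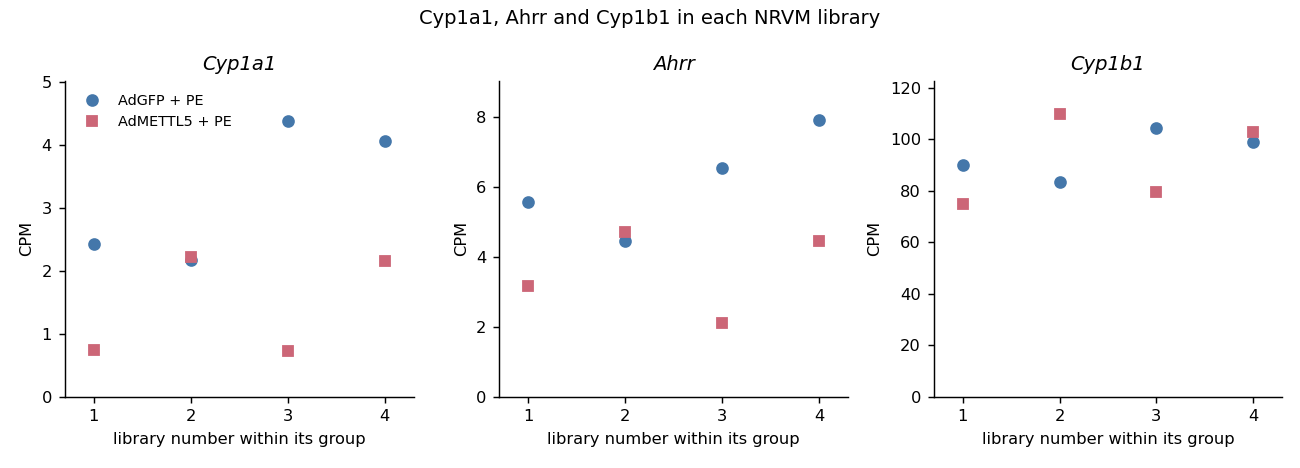
CPM of Cyp1a1, Ahrr and Cyp1b1 in each NRVM library by its number within the group, where a shared number does not pair an AdGFP (blue circle) with an AdMETTL5 (red square) library. AdMETTL5 libraries 2 and 4 lie above 1 and 3 for all 3 genes, and Cyp1b1 reaches 109.8 CPM in AdMETTL5 library 2.

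Of the 6 genes, 4 passed in the NRVMs (Cyp1a1, Ahrr and Arnt lower, Ahr higher), beside 52.8% of the 15041 genes tested (27.1% higher and 25.7% lower), and 2 had groups that did not overlap, beside 48.4%. With an absolute log2 fold change over 1 also required, Cyp1a1 alone passed, beside 5.85%. The rule used this comparison for Cyp1a1, and with more genes called than not, nothing is read from the counts. The AdMETTL5 cells also differed in the markers of cell type and of the interferon response. The 8 interferon-response genes summed to 21.5 to 66.9 CPM with AdGFP and to 477 to 899 with AdMETTL5, and 8 of 8 were called higher. The 6 cardiomyocyte markers summed to 0.384 times the AdGFP mean and 6 of 6 were called lower. The 6 fibroblast markers in the rat table summed to 0.824 times that mean without overlap, and 5 of 6 were called lower. The endothelial markers summed to 1.29 times that mean, also without overlap. Of the 6 tested endothelial markers 3 were higher (1 called) and 3 lower (none called). Sums were also lower without overlap for atrial (0.482), adipocyte (0.759), macrophage (0.808) and pericyte (0.822) markers. The part of these differences in the values of the AHR genes was not tested.

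Other genes of the pathway were followed in 7 lists with 48 genes: the chaperone complex, ARNT relatives and their bHLH-PAS partners, target genes, tryptophan catabolism, P450 electron donors, the AHR ubiquitin ligase and coregulators. After TAC 8 of the 30 tested genes passed, 6 higher and 2 lower, or 26.7% beside 12.7% of all genes. The 30 genes had a median log2 fold change of 0.15, beside -0.0035 for all genes. All lists were chosen with earlier results of these data known, so nothing is read from their shares of called genes. Without Ereg, which passed the filter on low counts through METTL5-cKO TAC libraries alone, 7 of 29 passed (24.1%). Of the 11 tested target genes 4 were called higher, Ereg among them, and 1 fell.

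Ereg, the EGF-family ligand epiregulin, was at 2, 5, 0 and 0 counts in control TAC and at 63, 34, 28 and 18 counts in METTL5-cKO TAC hearts (fitted log2 fold change 4.11, SE 0.678). No control library reached the filter on low counts, so Ereg was tested only because of the METTL5-cKO TAC libraries in which it is high, its call is no support for a rise, and the fitted size depends on 7 control counts. Ptgs2, the inducible prostaglandin synthase, rose from 1.15 ± 0.335 to 2.80 ± 0.447 CPM (SD, n = 4; log2 fold change 1.28, adjusted p = 0.0113, edgeR). Stc2, a secreted stanniocalcin, and Slc7a5, a large neutral amino acid transporter that carries tryptophan and kynurenine, rose by 0.99 and 0.60 on the log2 scale (adjusted p = 0.0363 and 0.0360, edgeR). Xdh, which makes uric acid, was the target gene that fell, from 157 ± 20.6 to 87.7 ± 21.2 CPM without overlap (log2 fold change -0.84, adjusted p = 0.0168, edgeR).

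Among the partners, Hif1a rose by 0.65 and Epas1 (HIF-2α), which is abundant in endothelium, fell by 0.41 on the log2 scale (adjusted p = 0.0292 and 0.0491, edgeR). Cyb5r3, which passes electrons to cytochrome b5, rose by 0.56 (adjusted p = 0.0345, edgeR). Of the 4 chaperone genes, 3 ubiquitin ligase genes and 5 coregulators, none passed, with log2 fold changes from -0.20 to 0.38, and 2 of these 12 had an unadjusted p under 0.05 (31.0% of all genes). Leaving Ereg aside, Ptgs2 was the pathway gene whose call held without each single library in turn, and the calls of the others were lost. Leaving out control TAC library 1 gave a pathway count of 6, and leaving out METTL5-cKO library 4 gave 12. Calls over all genes were then 1591 and 3899 in place of 2071. The pathway count was 2 without control library 2, control library 4 or METTL5-cKO library 2 (696, 479 and 536 calls over all genes). It was 3 without METTL5-cKO library 1 (971), and 4 without control library 3 (1041) or METTL5-cKO library 3 (1020). Calls over all genes thus changed along with the pathway count.

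At 3 months and at 1 month no pathway gene passed edgeR's test. The smallest p at 3 months belonged to Hif3a, an inhibitory relative of the hypoxia-inducible factors, at 1.68, 1.03, 2.22 and 1.00 CPM in control and 3.48, 3.37, 7.01 and 3.43 in METTL5-cKO hearts without overlap (log2 fold change 1.54, adjusted p = 0.282, edgeR). DESeq2 called this 1 gene (adjusted p = 0.0131). Slc7a5 followed (log2 fold change 0.47, adjusted p = 0.567, edgeR). At 1 month the smallest belonged to Cyp2s1, an extrahepatic P450 (log2 fold change -0.76), and Nfe2l2, the antioxidant factor NRF2 (0.16), both with adjusted p = 0.973 (edgeR). Unadjusted p under 0.05 was found for 1 of 28 tested pathway genes at 1 month and 2 of 30 at 3 months, beside 4.57% and 7.05% of all genes.

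In the NRVMs 21 of 36 tested pathway genes passed, 14 higher and 7 lower, or 58.3% beside 52.8% of all genes. Hsp90aa1, the inducible HSP90 that holds AHR, rose by 0.86, Ptges3 (p23) by 0.29 and Hsp90ab1 by 0.18 on the log2 scale (adjusted p = 1.46e-07, 0.000219 and 0.00246, edgeR). Arnt2, a close relative of Arnt, rose from 14.98 to 27.2 CPM (log2 fold change 0.86, adjusted p = 9.97e-06, edgeR), and Hif1a rose by 0.14 (0.0155).

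Of the 14 tested target genes in the NRVMs, 6 rose and 3 fell, or 64.3% called beside 52.8% of all genes (27.1% higher and 25.7% lower). Nothing is read from this count, and the genes are named as a description. Socs2, a suppressor of cytokine signalling, fell by 1.11 on the log2 scale (adjusted p = 6.68e-07, edgeR), and Aldh3a1, an aldehyde dehydrogenase of the classical AHR battery, fell by 0.84 (0.00898). Hes1, a Notch target, fell by 0.38 (0.000252). Xdh rose by 0.99, Serpinb2 (plasminogen activator inhibitor 2) by 0.88, Slc7a5 by 0.44, Nfe2l2 by 0.43, Ptgs2 by 0.34 and Gsta1, a glutathione transferase, by 0.30 (adjusted p between 3.33e-06 and 0.0371, edgeR). Xdh thus had a negative difference with METTL5 loss after TAC and a positive one with METTL5 gain. With METTL5 loss in unoperated hearts its log2 fold change was 0.15 at 3 months and -0.62 at 1 month, neither called (adjusted p = 0.999 and 0.973, edgeR). Cyp1a1 was lower both after TAC and in NRVMs by the rule that chose it, so its contrast with Xdh is a description.

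The remaining calls in the NRVMs were spread over the smaller lists. Por and Cyb5r3, the reductases that feed P450 enzymes and cytochrome b5, fell by 0.23 and 0.69 on the log2 scale (adjusted p = 0.00175 and 1.33e-06, edgeR). The coregulators Nrip1 and Ncoa3 rose by 0.38 and 0.28, and the ubiquitin ligase subunit Tbl3 rose by 0.21 (adjusted p = 0.00259, 0.00868 and 0.00694, edgeR). Aadat and Il4i1, which turn kynurenine or tryptophan into ligand precursors, fell by 0.46 and 0.47 (adjusted p = 0.0280 and 0.0411, edgeR). The calls of Aadat, Il4i1, Gsta1 and Ptgs2 were each lost without any of several libraries of both groups, with log2 fold changes of -0.34, -0.36, 0.19 and 0.26 at the nearest to 0, and that of Hif1a was lost without AdMETTL5 library 3 (0.12). Cyp1a2, the neighbour of Cyp1a1, had 0 counts in every TAC and NRVM library and at most 17 counts in any other.

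**Figure D4:**
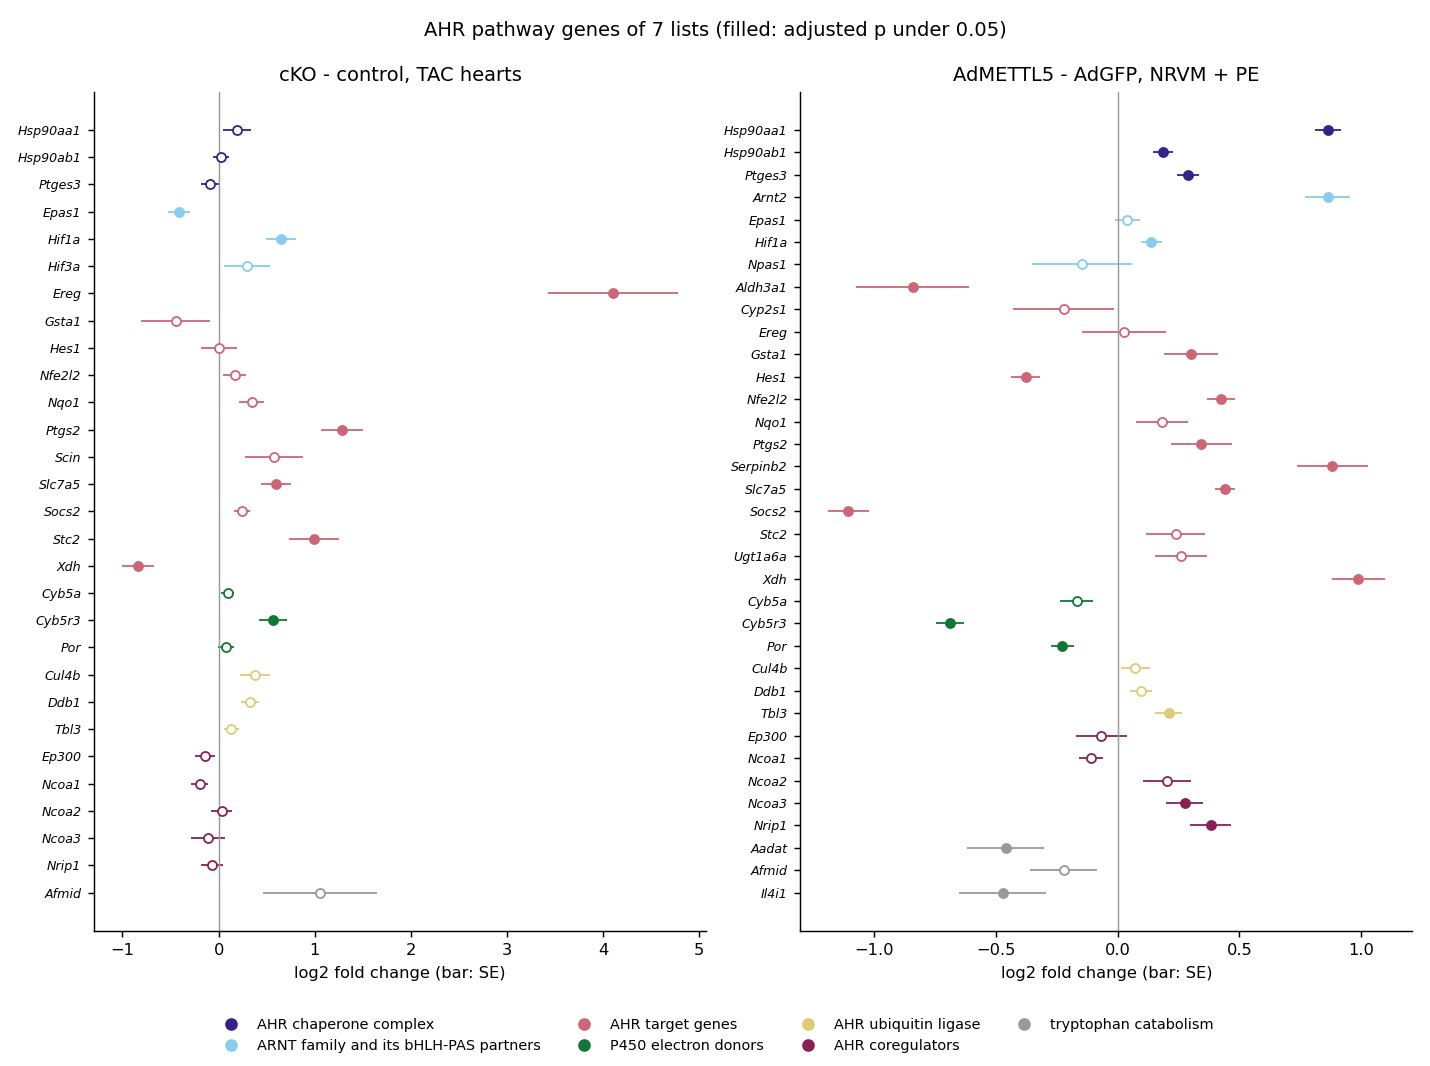
Log2 fold change with its standard error (bars) of the pathway genes tested in the TAC hearts (30 genes) and in NRVMs with PE (36 genes), 1 of them not shown in either panel, coloured by list, with filled points for an adjusted p under 0.05. Ereg is at 4.11 after TAC, Xdh is at -0.84 after TAC and 0.99 in NRVMs, and filled points lie on both sides of 0 in each panel.

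Markers of several cell types also differed between the groups after TAC, some lower as Cyp1a1 was and some higher. The 8 endothelial markers summed to 708 to 843 CPM in control TAC and 503 to 639 CPM in METTL5-cKO TAC hearts, without overlap, a ratio of group means of 0.719, and 5 of 8 were called lower. The corresponding ratio was 0.116 for Cyp1a1 and 0.561 for Ahr. At 3 months the endothelial ratio was 0.743, with overlapping libraries, beside 0.840 for Cyp1a1. The 7 fibroblast markers summed to 506 to 620 and 727 to 1681 CPM after TAC, 5 of 7 called higher, and the 6 cardiomyocyte markers to 34423 to 38691 and 25004 to 33145 CPM, 1 of 6 called lower. The sums also separated for the 6 macrophage markers (1.32 times control, 2 called higher), the 3 pericyte markers (0.817, 1 called lower), the 8 interferon-response genes (0.61, 2 called lower) and the low atrial markers (1.43, none called). The 4 lung epithelial markers were at 0 in every library, and of 3 hepatocyte markers Alb and Fga were at 0. The part of these lists in the Cyp1a1 and Ahr values was not tested.

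**Figure D5:**
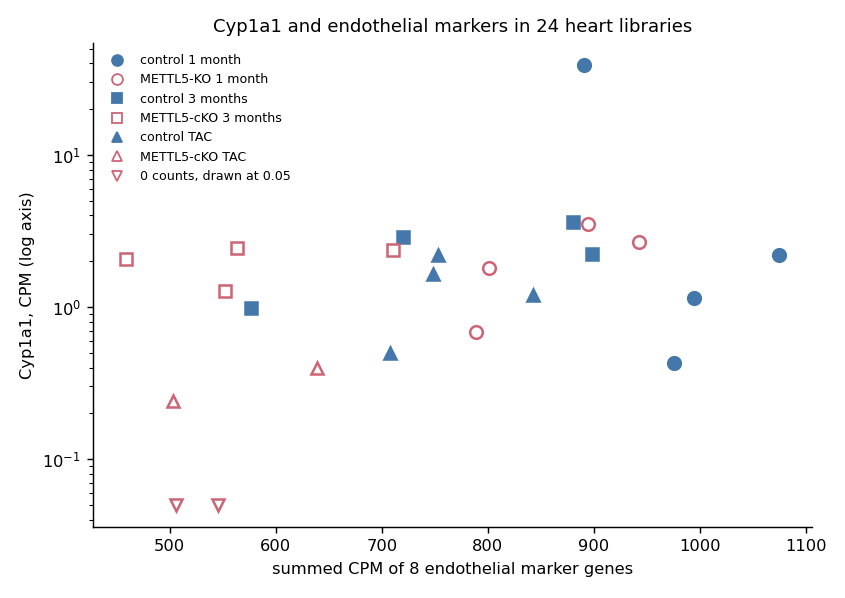
Cyp1a1 in CPM on a log axis against the summed CPM of 8 endothelial markers in each of the 24 heart libraries, with filled points for control and open points for METTL5-KO or METTL5-cKO, and inverted triangles for 0 counts, drawn at 0.05 CPM. The METTL5-cKO TAC libraries lie at 503 to 639 CPM of endothelial markers and the control TAC libraries at 708 to 843 CPM. CPM are scaled within each comparison, so heights are not compared between comparisons, and the part of the endothelial markers was not tested.

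With group means subtracted, so that r describes the spread within groups, the genes whose log2 CPM followed Cyp1a1 most closely differed between the hearts and the rat cells. Over the 24 heart libraries Pearson's r was highest for Fah (0.890), Cbx7 (0.889), Araf (0.873), Adcy6 (0.873) and Pbld1 (0.869) of 14397 genes. These leaders changed to Amt, Zfp384, Metap1d, Fnbp1l and Abr (0.788 to 0.830) without control library 1 of 1 month. Ahr ranked 258 with r = 0.682 and, without that library, 999 with r = 0.436. Ahrr (0.013) and Tiparp (0.034) did not follow Cyp1a1 in the hearts, and without that library their r was -0.302 and -0.246. Cyp1b1 ranked 2390 in the hearts (r = 0.395) and 4256 without that library (r = 0.170). Arnt had r = 0.142 with that library and -0.047 without it. Over the 8 NRVM libraries Cyp1b1 had the highest r of 14321 genes (0.978), followed by Rcan2 (0.974), Nit2 (0.972), Olfml2a (0.962) and Apbb1 (0.961), and Ahrr ranked 68 (0.893). Arnt (0.365) and Ahr (0.256) followed Cyp1a1 less in these cells, and Tiparp had a negative r (-0.387). These values describe 8 libraries in 2 groups and carry no test.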

How the data were processed

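Per the labels and the study's methods, total RNA was made into libraries by a BGIseq protocol, reads were aligned with HISAT2 (2.0.4) to GRCm38 or Rnor_6.0, and the authors deposited estimated counts per gene from StringTie (2.1.4) as whole numbers, in 4 tables. The submitters' notes also name DESeq2 (1.4.5). A strand setting is not given in the sources used here. Columns of the 1-month table matched single samples, and those of the other tables matched groups only, so libraries there were numbered within groups by column name. The fits kept 396 rat rows without a symbol.

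Genes were filtered with filterByExpr (minimum count 10, minimum total 15), scaled by TMM and tested with edgeR (4.0.16, R 4.3.3) quasi-likelihood F-tests in each table, with Benjamini-Hochberg adjustment over all genes tested. A gene passed, rose or fell at an adjusted p under 0.05. The genotype-by-table term of a joint fit of the 3-month and TAC tables gave the difference of effects with its standard error. Exact two-sided permutation tests used log2 CPM (prior count 2) over 70 labellings. The estimated counts were meant to be raw counts in the design, and the same test was kept. Tests were checked on simulated data with changes planted only in genes of high counts. Changes at counts as low as those of Cyp1a1 were not covered by that check. The genes named were the 6 genes, the pathway genes that passed (or the 2 smallest p), the 5 genes most like Cyp1a1 (Pearson's r of log2 CPM after subtracting group means) among those of mean CPM of at least 1, and Mettl5. The 6 genes and all lists were chosen with earlier results of these data known. Alternatives were DESeq2 (1.42.0), its size factors in edgeR, library size alone, no filter, at least 10 counts in every sample, a fold threshold, a replicate block and leaving out each library. Intervals are 1.96 standard errors, and counting floors cover counting error only. Gene positions are from the GENCODE annotation of GRCm38. 1 gene of the pathway lists is not reported here by name.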

Additional observations from a re-analysis of the deposited data

Results flagged for a closer look

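Among 48 sets of 4 libraries (6 genes in 8 groups), 4 held a library whose gap to the nearest other exceeded 0.829 of the range, where chance marks about 1 set in 20. Cyp1a1 was at 39.3 CPM in control library 1 at 1 month, with the other control libraries between 0.428 and 2.199. Tiparp was at 14.2 CPM in control library 1 at 3 months, with the others between 7.51 and 7.92. Arnt was low in 2 groups at 3 months, at 26.3 CPM in control library 2, with the others at 31.0 to 31.9, and at 12.05 CPM in METTL5-cKO library 4, with the others at 29.9 to 33.4.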

How the results depend on the processing

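Cyp1a1 stayed lower under every change of tool, scaling or filter after TAC (-3.11 to -2.96) and in NRVMs (-1.17 to -1.02), and also at 1 month (-2.55 to -0.84) and 3 months. Without a filter on low counts its value after TAC was -3.08 and no longer passed. The comparisons after TAC and in NRVMs chose Cyp1a1, so its lower values there are a description and no support. Leaving out single libraries moved it from -3.92 to -2.68 after TAC, from -1.42 to -0.93 in NRVMs, from -2.72 to 0.80 at 1 month and from -0.51 to 0.011 at 3 months. It could not be fitted with at least 10 counts in every sample at 1 month and after TAC, and DESeq2 gave no adjusted p for it at 1 month.

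The count of the 6 genes that passed after TAC was 1 in place of 2 with an absolute log2 fold change over 1 also required, without a filter, or with at least 10 counts in every sample, and 0 to 2 without single libraries, but 3 in DESeq2 and with library size alone. The count of pathway genes after TAC was 2 with the fold threshold, 3 without a filter, 10 in DESeq2 and with library size alone, and 2 to 12 without single libraries. Calls over all genes were 474 with the fold threshold, 1052 without a filter, 2692 in DESeq2 and 2584 with library size alone. Without single libraries they ranged from 479 to 3899. In NRVMs the fold threshold left 1 of the 6 genes and 1 pathway gene, and leaving out libraries gave 3 to 4 and 18 to 20. DESeq2 called 1 pathway gene at 3 months.

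With library size alone, the median of all genes shifted by 0.147 after TAC and 0.135 in NRVMs, higher genes made up 79.7% and 71.5% of calls in place of 51.9% and 51.4%, and Ahrr at 3 months (0.030) and Cyp1b1 in NRVMs (0.094) changed sign, while Arnt (-0.17), Por (-0.090), Aadat (-0.32) and Il4i1 (-0.34) in NRVMs and Epas1 after TAC (-0.27) no longer passed. Tiparp after TAC passed with library size alone (0.75) and in DESeq2 (0.63). Near-zero values also changed sign without single libraries: Ahr (-0.63 to 0.23) and Ahrr (-0.039 to 0.35) at 1 month, Ahrr (-0.39 to 0.20) and Arnt (-0.33 to 0.051) at 3 months, Arnt after TAC (-0.048 to 0.12) and Cyp1b1 in NRVMs (-0.14 to 0.047). Over all genes DESeq2 called 12 in place of 1 at 1 month and 96 in place of 12 at 3 months, and the fit without a filter called 1 at 3 months and 1052 in place of 2071 after TAC. The causes were not tested.

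Same-numbered libraries at 1 month correlated at 0.239, 0.120, -0.107 and 0.078, values that neither show nor exclude a pairing by number. A replicate block gave -0.84 for Cyp1a1 there, with 0 calls among the 6 genes and the pathway genes. No paired analysis was possible because the columns of the other tables match groups only. Depth limits Cyp1a1, with 14 counts in the METTL5-cKO TAC hearts, and Ereg, with 7 in control TAC.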
